A study of Mus musculus with 3 samples.

Results

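Of the 33038 cell barcodes deposited for 3 mouse testis libraries, 3028 held more than 10% of their unique molecular identifiers (UMIs, each counting 1 captured RNA molecule) in genes of the mitochondrial genome. They were chosen by this share alone, at any UMI total: every barcode in which the 13 genes with symbols starting mt- exceeded the limit is a member. There were 1062 members among 9967 barcodes of wildtype replicate 1, 1062 among 10153 of wildtype replicate 2 and 904 among 12918 of the knockout library. Below, 3 values in a row stand for these libraries in that order. Each wildtype library came from the testes of 1 adult mouse, and the knockout library pooled cells of 2 adult mice with a conditional Tex10 knockout, so the knockout group has no replicate. All mice carry the strain label C57BL/6N, and the driver of the conditional deletion and the deleted exons are not given in the sources used here. Testes were digested with collagenase IV, strained at 70 and 40 µm and profiled with the 10x Genomics 3′ assay, which counts transcripts near their 3′ ends. The series asked what the loss of Tex10 does to spermatogenesis. The question here was which germ or somatic cells the other transcripts of the members resemble.

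The mitochondrial genome encodes a few subunits of the respiratory chain, and the share of its transcripts is often used as a sign of cell quality, because damaged cells lose cytoplasmic RNA sooner than RNA inside mitochondria. The share also differs between healthy cell types. Sertoli cells are the large somatic nurse cells of the seminiferous tubule; they hold germ cells in folds of their cytoplasm, form the blood-testis barrier and engulf the residual bodies that spermatids shed. Spermatocytes complete meiosis, round spermatids follow, and elongating spermatids pack their DNA with transition proteins and protamines.

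Members were shallow in the wildtype libraries. Their median total was 1607, 1620 and 2738 UMIs, against 2271, 3733 and 2840 in the other barcodes, and their lowest totals were 911, 865 and 1382. The medians of the wildtype members lay below those of the other wildtype barcodes, while in the knockout library, where the lowest deposited total was itself higher, both medians lay close together. The members held 3.08%, 3.25% and 2.81% of all UMIs but 29.7%, 30.1% and 27.5% of all mitochondrial UMIs. Of the members, 97, 122 and 204 had 5000 UMIs or more. Library totals were 93418341, 96001773 and 147783171 UMIs. The libraries shared 27 to 30 barcode sequences per pair, and no shared barcode was a member in both libraries of a pair. Among the members, 54, 52 and 19 were in the 8% of barcodes with the highest doublet scores of their library, and they were kept. Tex10, the targeted gene, stood at 43.4 (exact Poisson interval 35.4 to 52.8), 55.2 (46.4 to 65.1) and 70.3 (61.7 to 79.7) CPM (counts in 1e6 non-mitochondrial UMIs) in members, and at 45.2, 41.3 and 35.5 in the other barcodes. The library labelled knockout was thus highest among members and lowest among the others. A 3′ tag outside the deleted exons would not see a deletion, so these levels do not check the label.

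By construction every member exceeded the limit, so the values that follow describe the choice. The median mitochondrial share of members was 15.9%, 14.9% and 14.7%, against 0.727%, 0.691% and 0.647% in the other barcodes. The highest share was 77.5%, 72.2% and 64.4%. The limit cut through a continuous range: 112, 140 and 136 members lay between 10% and 11%, and 138, 160 and 175 other barcodes lay between 9% and 10%. Shares above 30% were reached by 192, 213 and 131 members. mt-Co1, mt-Co2 and mt-Co3, which encode the 3 largest subunits of cytochrome c oxidase, were found in 100% of members in every library. Together they made up 56.7%, 58.3% and 54.3% of the members' mitochondrial UMIs, and 53.6%, 54.6% and 53.1% in the other barcodes.

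Single mitochondrial genes differed in share between kinds of members. mt-Co1 (chromosome M, 5328 to 6872, GRCm38, plus strand) gave 20.5%, 20.6% and 18.9% of the mitochondrial UMIs in members assigned to Sertoli-like cells, and 14.0%, 14.0% and 12.3% in those assigned to round spermatid-like cells. The groups did not overlap. mt-Atp6, a subunit of the ATP synthase, showed the opposite order, with 20.6%, 19.6% and 20.4% in Sertoli-like members and 26.2%, 24.5% and 24.6% in round spermatid-like members. mt-Co2 (7013 to 7696) made up 24.4%, 24.1% and 22.8% over all members and mt-Co3 (8607 to 9390) 14.1%, 15.7% and 14.0%. mt-Nd6, the only protein gene on the minus strand, gave 0.0810%, 0.0565% and 0.0514%. The values are UMI tags, not divided by gene length, so they compare a gene between groups of barcodes and not one gene with another.

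**Figure D1:**
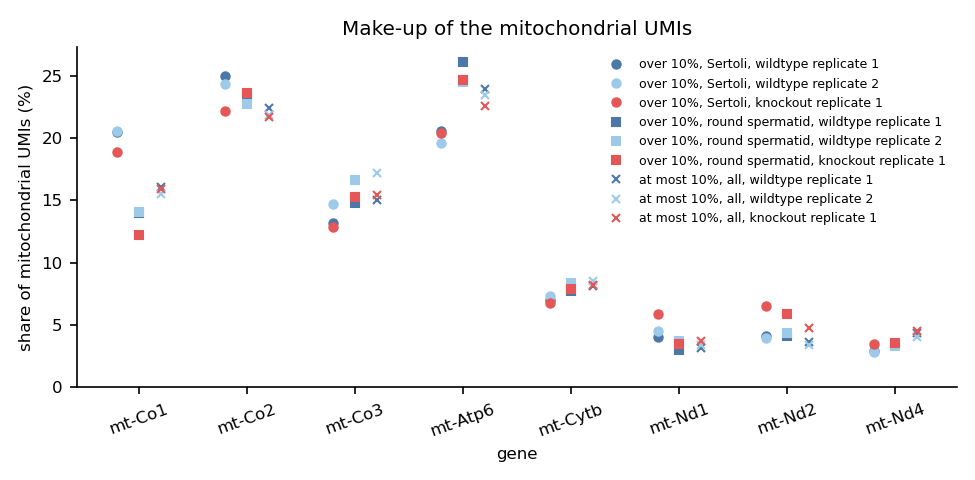
Share of the mitochondrial UMIs (y axis, %) taken by 8 mitochondrial genes (x axis), for Sertoli-like members (circles), round spermatid-like members (squares) and all barcodes at most 10% mitochondrial (crosses), each point 1 library. mt-Co1 lies at 18.9 to 20.6% in Sertoli-like and at 12.3 to 14.0% in round spermatid-like members, and mt-Atp6 shows the opposite order.

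The share of barcodes over the limit was 10.7% (95% exact binomial interval 10.1 to 11.3), 10.5% (9.87 to 11.1) and 6.998% (6.56 to 7.45). All intervals given cover counting error only. The knockout share lay 3.56 percentage points below the wildtype mean of 10.6% ± 0.138 (SD, n = 2). This order depended on depth: among barcodes with 5000 UMIs or more it was 2.80%, 2.94% and 4.33%, 1.46 points higher in the knockout library. Among barcodes with fewer than 1500 non-mitochondrial UMIs, 17.4%, 19.9% and 16.7% were over the limit. Part of this share is fixed by the choice. The lowest deposited totals were 908, 864 and 1381 UMIs, so barcodes far enough below them in non-mitochondrial UMIs had to be over the limit. Between 3000 and 5000 the shares were 7.70% (5.81 to 9.98), 7.20% (5.63 to 9.06) and 11.2% (9.60 to 13.0), and from 20000 upward they were 0.281%, 0.40% and 1.20%. The knockout library was thus below both wildtype libraries between 1500 and 3000 non-mitochondrial UMIs and had the highest share between 3000 and 10000. From 10000 to 20000 it was again the lowest, with 3.28% against 4.27% and 3.61%, and below 1500 it was lowest too. With 1 knockout library no test was possible, and genotype, depth and the lowest deposited UMI total cannot be told apart over all barcodes.

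**Figure D2:**
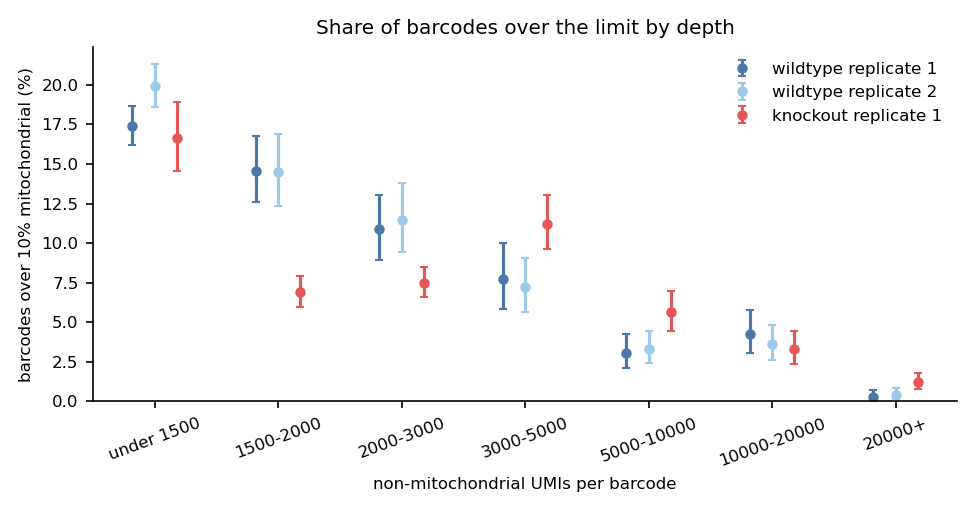
Share of barcodes over 10% mitochondrial UMIs (y axis, %) by class of non-mitochondrial UMIs per barcode (x axis) in the 3 libraries, with 95% exact binomial intervals that cover counting error only. The share falls from 16.7 to 19.9% below 1500 UMIs to 0.281 to 1.20% from 20000 UMIs upward, and the knockout library is lower than both wildtype libraries between 1500 and 3000 and higher between 3000 and 10000. In the lowest class, barcodes far enough below the lowest deposited UMI total are over the limit by construction.

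To ask which cells the members resemble, their non-mitochondrial UMIs were compared with profiles of 28 clusters built from 11058 barcodes of at least 5000 UMIs and at most 10% mitochondrial UMIs, of which the smallest, of 11 barcodes, gave no profile. Clusters were named from marker genes, and each barcode took the name of the profile with the highest likelihood. A name such as Sertoli-like therefore stands for a marker-defined group that was rebuilt here. The Sertoli-like cluster was led by Cst12, Clu, Cst9, Aard, Defb19, Ctsl, Amhr2, Basp1, Gatm and Ldhb. Some clusters carried markers of late spermatocytes and of round spermatids at once and are called the intermediate germ class.

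Nearly all members fell into 4 classes. Sertoli-like cells took 324, 370 and 373 members, or 30.5% (27.7 to 33.4), 34.8% (32.0 to 37.8) and 41.3% (38.0 to 44.6). The intermediate germ class took 28.6%, 34.9% and 33.1%, the round spermatid-like class 34.9%, 16.0% and 8.74%, and the late spermatocyte-like class 3.01%, 8.47% and 11.6%. The Sertoli-like and late spermatocyte-like shares were highest in the knockout library and the round spermatid-like share was lowest there. The Sertoli-like order turned with depth: from 2000 non-mitochondrial UMIs upward the shares were 59.6%, 56.7% and 48.0%, lowest in the knockout library. Early spermatocyte-like members numbered 16, 36 and 18, spermatogonia-like members 3, 11 and 11, Leydig-like members 3, 4 and 11, and elongating spermatid-like members 5, 3 and 5. Macrophage-like and myoid-like cells together took 7 members. The other barcodes were assigned in the same way: 8.82%, 6.62% and 6.92% of them were Sertoli-like and 20.6%, 26.1% and 20.5% elongating spermatid-like. Elongating spermatid-like barcodes were a large class below the limit and few above it. Their number in members depended on the assignment: when each stage profile was mixed with that of the shallowest barcodes, 84, 52 and 63 members (7.91%, 4.90% and 6.97%) were assigned to them.

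The germ classes of the members were shallower than their Sertoli-like class and rested on weaker evidence. The median of non-mitochondrial UMIs was 1702, 1662 and 2815 in Sertoli-like members, 1412, 1242 and 1928 in the intermediate germ class and 870, 778 and 1234 in round spermatid-like members. When a profile of the shallowest barcodes of each library was added as a further candidate, it took 66.9%, 52.2% and 53.1% of members. The round spermatid-like share, averaged over libraries, then fell from 19.9% (12.4% without wildtype replicate 1) to 1.15% and the intermediate share from 32.2% to 4.57%, whereas the Sertoli-like share went from 35.5% to 26.9%. When each stage profile was instead mixed with the shallow one, 18.6%, 31.8% and 25.3% of round spermatid-like members kept their class. Of intermediate members, 70.1%, 67.4% and 46.8% kept theirs. Most round spermatid-like calls could therefore not be separated from the RNA mixture of the shallowest barcodes. For the intermediate calls this depended on how the shallow profile was used. In reference barcodes thinned to 1497 UMIs, 94.4% of round spermatid-like, 96.9% of intermediate and 71.4% of Sertoli-like barcodes kept their name. Of the 217 Sertoli-like reference barcodes, 44 moved to elongating spermatid-like. The depth of 1497 UMIs is the median over all members and lies above the medians of round spermatid-like members. No RNA of the shallowest barcodes was added in the thinning. The 94.4% therefore does not measure how well the names of round spermatid-like members hold.

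**Figure D3:**
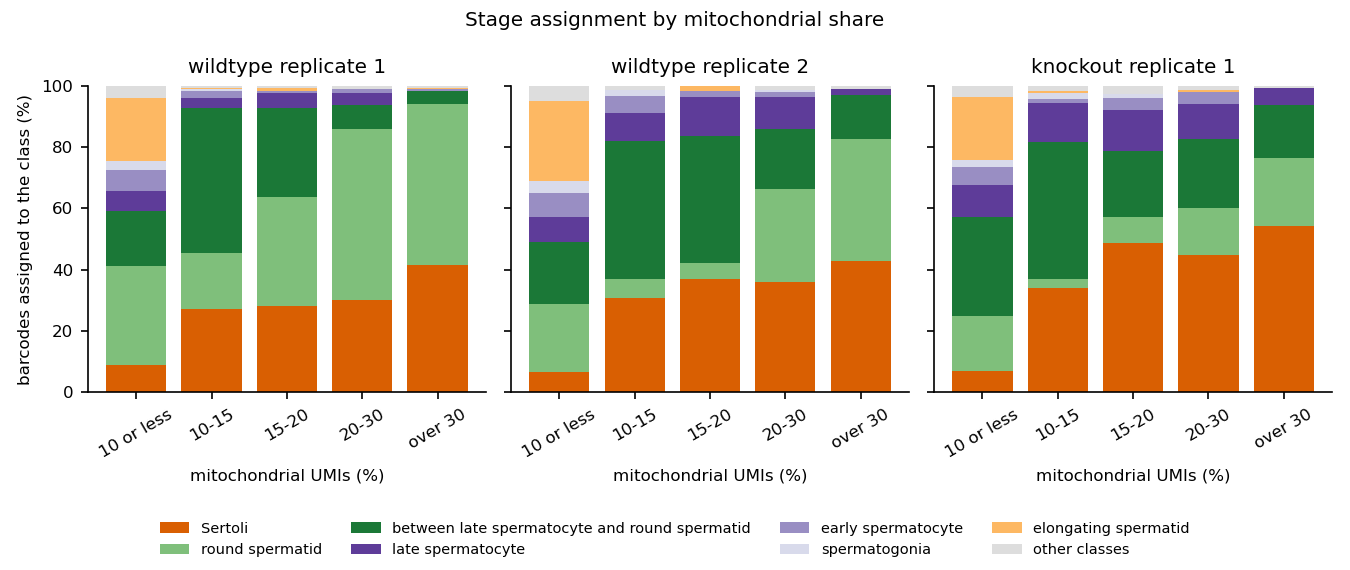
Share of barcodes assigned to each class (y axis, %) by mitochondrial share (x axis, %), in 1 panel per library; the first bar holds the barcodes at most 10% mitochondrial. Orange Sertoli-like parts rise from 6.62 to 8.82% in the first bar to 41.7 to 54.2% in the last, and the yellow elongating spermatid-like part, 20.5 to 26.1% of the first bar, is small in every bar above 10%.

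Within the members, the mix of classes shifted with the mitochondrial share. From 10 to 15%, 27.0%, 30.8% and 34.0% of members were Sertoli-like, and above 30% the shares were 41.7%, 42.7% and 54.2%. Round spermatid-like members rose over the same range from 18.4%, 6.16% and 2.78% to 52.6%, 39.9% and 22.1%. The intermediate germ class went the other way, from 47.5%, 45.0% and 44.8% to 4.17%, 14.6% and 17.6%. Each shift had the same direction in every library. Non-mitochondrial depth moved with it, since the median fell from 1466, 1432 and 2358 to 964, 872 and 1580 UMIs between the outer classes; its part in the shift was not tested.

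The share of Sertoli-like members rose with depth. Over all libraries, Sertoli-like barcodes were 23.2% of members below 1500 non-mitochondrial UMIs and 19.3% of the other barcodes of that depth. With rising depth the share went to 36.1%, 43.9% and 58.8% of members and reached 87.3% from 10000 upward, while it fell to 10.2%, 4.06%, 1.08% and 1.71% of the other barcodes. In the deepest class the members' shares were 86.0%, 94.1% and 82.5%, so each library showed the same picture. The median deep Sertoli-like member held 494 UMIs of the 12 Sertoli markers, and below 1500 UMIs the median was 8.

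**Figure D4:**
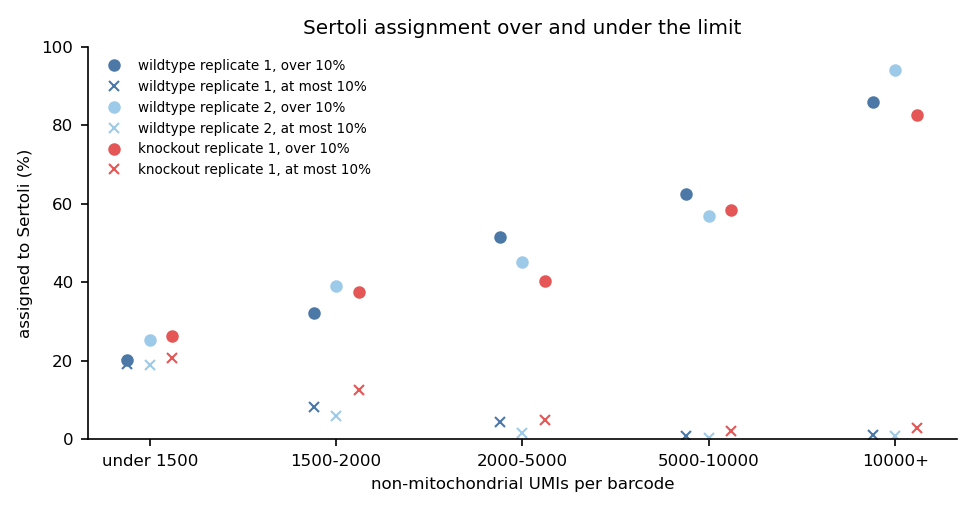
Share of barcodes assigned to Sertoli-like cells (y axis, %) by non-mitochondrial UMIs per barcode (x axis), for members (circles) and barcodes at most 10% mitochondrial (crosses) of each library. The 2 kinds lie close together below 1500 UMIs and separate with depth, to 82.5 to 94.1% of members and under 3% of the other barcodes from 10000 upward.

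Deep Sertoli-like barcodes carried the highest mitochondrial shares of the classes given here. Among those with 5000 non-mitochondrial UMIs or more, 62.0% (51.2 to 71.9), 73.0% (63.2 to 81.4) and 45.3% (38.5 to 52.3) were over 10%, and the median share was 10.8%, 12.0% and 9.55%. Over Sertoli-like barcodes of any depth the medians were lower, at 5.17%, 6.10% and 5.36%, and 29.2%, 38.1% and 31.0% were over the limit. Leydig-like barcodes of 5000 non-mitochondrial UMIs or more had medians of 6.03%, 6.14% and 5.86%, spermatogonia-like barcodes 4.70%, 5.30% and 4.30% and early spermatocyte-like barcodes 4.72%, 4.92% and 4.39%. Deep round spermatid-like barcodes were lowest, with 0.0440%, 0.0579% and 0.0593%, followed by elongating spermatid-like barcodes with 0.0665%, 0.0906% and 0.0940%. No deep intermediate barcode of the wildtype libraries was a member, of 330 and 497, and 1 of 326 was in the knockout library. Leydig-like barcodes of any depth had medians of 6.00%, 6.37% and 6.27%, above the Sertoli-like ones in each library.

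Removing the members changed the apparent abundance of Sertoli-like cells, and by a different amount in each library. Of barcodes with 5000 UMIs or more in total and at most 10% mitochondrial UMIs, 1.10% (0.776 to 1.51), 0.669% (0.442 to 0.972) and 2.71% (2.25 to 3.22) were Sertoli-like, on 37, 27 and 122 barcodes. With no limit the shares were 3.21% (2.65 to 3.85), 2.94% (2.44 to 3.50) and 5.52% (4.89 to 6.21), on 111, 122 and 260 barcodes. At this depth the knockout share was the highest at every limit tried, but its ratio to the wildtype mean went from 5.47 at a limit of 5% to 3.06 at 10%, 1.90 at 15% and 1.80 with no limit. The ratio at 5% rests on 5, 6 and 37 Sertoli-like barcodes. The wildtype shares there were 0.169% (0.0548 to 0.393) and 0.168% (0.0617 to 0.365), so this ratio is uncertain. Over barcodes of any depth the order differed: the knockout share was 5.38% at a limit of 5%, against 6.84% and 5.44%, and 9.32% with no limit, against 11.1% and 9.57%. There the knockout library was lowest at limits of 5%, 15% and 20% and with none, and lay between the wildtype libraries at 10%. These ratios rest on 1 knockout library and have no replicate check.

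**Figure D5:**
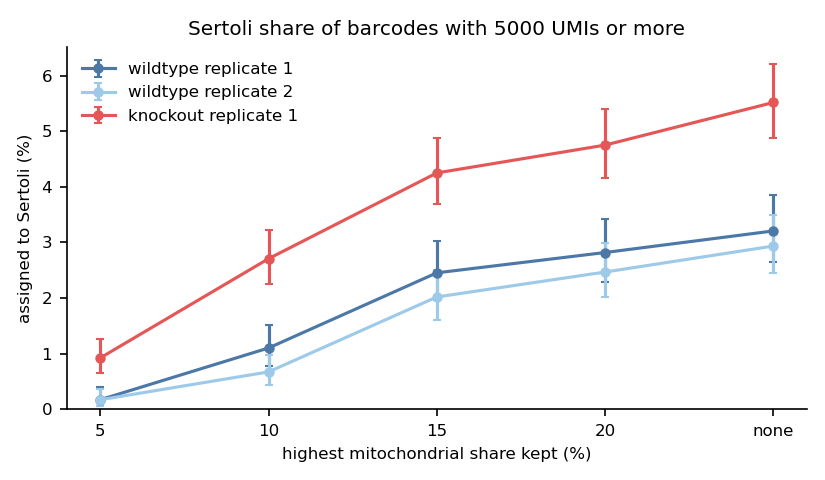
Share of Sertoli-like barcodes (y axis, %) among barcodes with 5000 UMIs or more, by the highest mitochondrial share kept (x axis, %), with 95% exact binomial intervals. Among these deep barcodes the knockout library is highest at every limit, from 0.921% at 5% to 5.52% with none, and the wildtype libraries rise from 0.168 and 0.169% to 2.94 and 3.21%.

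Genes were then compared between members and other barcodes, with UMIs summed per library, mitochondrial genes left out, and levels given as CPM of non-mitochondrial UMIs. The test was edgeR's quasi-likelihood test with the 3 libraries as replicates and Benjamini-Hochberg adjustment over all 20159 genes tested. Members were higher for 5950 genes (29.5%) and lower for 6196 (30.7%) at an adjusted p of at most 0.05. The scaling by trimmed means (TMM) shifted the median log2 difference by −0.40 against scaling by library totals, under which 69.8% rather than 49.0% of the called genes were higher in members. The shift was −0.09, −0.37 and −0.23 in the Sertoli-like, intermediate and round spermatid-like classes. Because members were shallower, each result was also computed on barcodes with 1000 to 5000 non-mitochondrial UMIs, called the matched range here. It sets the same bounds for members and others, but depth within these bounds was not equalized and may still differ. The range left 6479 called genes. Of these, 3431 were higher and 3048 lower in members. The number of genes tested in this range is not given here, so counts in it stand without a share over all genes.

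Sertoli markers rose together: 12 of 12 were higher in members, beside 29.5% of all genes, with a median log2 difference of 4.53 against −0.13 over all tested genes. In the matched range 11 of 11 tested were higher, with a median of 2.16. Wt1, a transcription factor that Sertoli cells need to keep their identity, stood at 136, 175 and 141 CPM in members and at 3.12, 2.77 and 5.18 CPM in the others. Every member value exceeded every other value, and the log2 difference was 4.98 ± 0.20 (SE; adjusted p = 5.43e-11, edgeR). Cst12, a cystatin of the testis, stood at 3004, 3339 and 2720 CPM against 95.8, 68.5 and 122 CPM (log2 4.62, adjusted p = 4.79e-11, edgeR). Beside Wt1, the highest differences were those of Cldn11, a tight-junction protein of the blood-testis barrier (5.06), Inhbb, an inhibin and activin subunit (5.03), Enpp2 (5.02), Daam2 (5.0) and Ptpre (4.99), followed by Trim7, Adora1, Mro and Etnk2 (4.84 to 4.93). In the matched range Wt1 and these 9 genes had log2 differences of 2.07 to 2.98 and each passed the test.

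Genes of several germ cell stages fell. Early spermatocyte markers were lower for 10 of 12, with a median of −1.08, and late spermatocyte markers for 9 of 11, with −0.90. In the matched range 7 of 12 and 4 of 11 were lower, with medians of −0.42 and −0.34 against 0.01 over all tested genes. The late spermatocyte fall was thus small in the matched range. All 13 elongating spermatid markers were lower in members, beside 30.7% of all genes, with a median of −1.46, and all 13 were lower in the matched range, with a median of −1.27. Prm2, a protamine, stood at 8289, 6111 and 7331 CPM in members against 24400, 26167 and 27448 CPM in the others, a log2 difference of −2.25 ± 0.10 (SE; adjusted p = 1.08e-10, edgeR). All 11 round spermatid markers were lower, by a median of −0.88, but only 5 passed under library totals. In the matched range all 11 were lower, with a median of −1.05. Paqr5 (−2.31), Tex37 (−2.29), Cby3 (−2.26), Klk1b8 (−2.23), Defb33 (−2.16), Bpifa3 (−2.15) and Ttc24 (−2.14) fell too. Piwil1, which encodes a protein that binds small RNAs in spermatocytes, had −2.19 over all barcodes but 0.22 (adjusted p = 0.206, edgeR) in the matched range.

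Markers of other somatic cells did not follow 1 direction. Leydig cell markers were higher for 8 of 9 genes with a median of 1.06. Their summed level was 1041, 342 and 442 CPM in members against 202, 152 and 260 CPM in the others, and none was at 0 in members. Most of it in wildtype replicate 1 lay in members of 10 to 15%, at 1694 CPM, which held its Leydig-like members. Of 7 peritubular myoid markers 6 were lower, and Acta2, smooth muscle actin, stood at 6.02, 29.2 and 5.83 CPM against 71.2, 58.1 and 52.2 CPM. Of 9 macrophage markers 6 were lower and Mrc1 rose (log2 4.38); Mrc1 was also at 129, 143 and 135 CPM in Sertoli-like members, and 4, 1 and 0 of the 9 were at 0 in the members. Endothelial markers were higher for 1 of 6 and lower for 1 of 6, at 7.74 to 10.5 CPM in sum.

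Testis forms of mitochondrial genes encoded in the nucleus fell, and general forms went both ways. Of 15 testis forms and sperm-sheath genes, all were lower in members with a median of −1.13, and 10 of 15 in the matched range. Cyct, the testis cytochrome c, had −1.43 and Cox6b2, a sperm subunit of cytochrome c oxidase, −1.43. Their somatic counterparts rose: Cycs, the somatic cytochrome c, stood at 617, 622 and 572 CPM in members against 45.0, 38.6 and 52.1 CPM (log2 3.35, adjusted p = 4.79e-11, edgeR), and Cox6b1 had a log2 difference of 1.29. Cox8a (2.33) and Ndufa4 (1.92) were higher too. Over the 25 general respiratory chain genes, however, 7 were higher and 11 lower, beside 29.5% and 30.7% of all genes. The higher count was thus near the share of all genes, and the general genes named above are among the higher ones. In the matched range 7 of 25 were higher and 2 lower. Under library totals 12 were higher and 3 lower, so the list as a whole had no stable direction.

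The counts of this paragraph over all barcodes stand beside 29.5% higher and 30.7% lower among all tested genes. Among 16 genes of mitochondrial import, folding and turnover, 9 were higher and 1 lower. In the matched range 6 of 16 were higher and 1 lower. The chaperonin Hspd1 stood at 160, 181 and 162 CPM against 35.2, 33.1 and 37.7 CPM (log2 1.85). Of 16 immediate-early and heat shock genes, 10 were higher and 4 lower with a median of 1.17, but in the matched range 0 of 15 were higher and 10 were lower, with a median of −1.26. Ier2 went from 2.16 to −1.54, Junb from 1.49 to −2.15 and Jun from 1.39 to −1.48. Of 14 genes of apoptosis and p53 targets, 9 were higher and 2 lower, and 6 of 11 were higher in the matched range. Bax, which permeabilizes the outer mitochondrial membrane, stood at 72.2, 84.8 and 75.5 CPM against 24.4, 21.8 and 25.1 CPM (log2 1.31; 0.88 in the matched range). Cdkn1a, a cell cycle inhibitor, had 3.05 (1.08 in the matched range). Cytosolic ribosomal protein genes were lower for 56 of 84 and higher for 10, but under library totals 24 were higher and 21 lower. Of 7 nuclear-retained RNAs, 4 were higher; Malat1 stood at 1660, 1731 and 3914 CPM against 830, 770 and 959 CPM, though in the matched range its log2 difference was −0.41 (adjusted p = 0.177, edgeR).

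Transcripts linked to ribosomal RNA repeats climbed with the mitochondrial share. Gm42418, which overlaps a ribosomal RNA repeat, stood at 3187, 1805 and 8142 CPM in the other barcodes. It rose through the classes to 24974, 16629 and 53677 CPM in members above 30%. Lars2, the mitochondrial leucyl-tRNA synthetase, went from 188, 94.6 and 392 CPM to 4255, 2356 and 6592 CPM, and Gm26917 from 21.6, 19.9 and 24.2 CPM to 782, 423 and 1837 CPM. The order of the classes was the same in every library for Gm42418 and Lars2. These 3 genes were singled out after their values had been seen, and how the counting treated reads that fit several places is not given in the sources used here.

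Members and other barcodes were next compared within the same class. In the Sertoli-like class 5780 of 11210 genes were called, 2682 higher (23.9%) and 3098 lower (27.6%) in members. Of the 12 Sertoli markers 11 were higher, with a median log2 difference of 0.60 against 0.02 over all genes, and 9 of 11 in the matched range. Wt1 stood at 257, 299 and 230 CPM in Sertoli-like members and at 129, 142 and 133 CPM in the other Sertoli-like barcodes, which did not overlap (log2 0.85, adjusted p = 8.17e-08, edgeR). All 13 elongating spermatid markers were lower, with Prm1 at 7305, 6174 and 7334 CPM against 13883, 13677 and 14519 CPM, and 6 of 13 were lower in the matched range. The median non-mitochondrial depth, 1702, 1662 and 2815 UMIs in these members against 1134, 1072 and 1763 in the others, moved with both lists. Within classes of depth the difference was small or absent in shallow barcodes. Below 1500 UMIs the Sertoli markers summed to 9815, 12461 and 6077 CPM in these members against 9436, 11433 and 6893 CPM, and the elongating spermatid markers to 52174, 41972 and 52816 CPM against 53174, 46402 and 51955 CPM. From 10000 UMIs upward the Sertoli sums were 31497, 32410 and 28021 CPM against 25113, 17565 and 18641 CPM.

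Among genes of at least 50 CPM without Gm or Rik symbols, Obsl1 rose most in Sertoli-like members. Obsl1, a cytoskeletal adaptor, stood at 60.8, 73.1 and 83.0 CPM against 25.8, 16.5 and 27.2 CPM (log2 1.54, adjusted p = 2.06e-09, edgeR; 2.70 in the matched range). Syt7, a calcium sensor of vesicle fusion (1.27), Wnk4, a kinase (1.26), Itpr2, a calcium release channel (1.25), Nfat5, a transcription factor of osmotic stress (1.20), Pard3b, a polarity protein (1.14), Ninl, Unc13b, Atp8b2 and the endothelin gene Edn1 (1.13 to 1.14) followed. Each except Edn1, which was not tested there, also passed in the matched range, with log2 differences of 1.47 to 2.70. Cdc42ep3 fell most (−1.54; −0.65 in the matched range), and Tex37, Txndc2, Paqr5, H1fx, BC048507, Khdrbs3, Hspa1l, Cstl1 and Nap1l1 had −1.26 to −1.22. Of those, Paqr5, BC048507 and Cstl1 still passed in the matched range.

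Nuclear-retained RNAs were higher for 2 of 4, in the matched range as well. Malat1, which stays in the nucleus, rose from 971, 850 and 1796 CPM to 1795, 1913 and 3886 CPM (log2 0.96; 1.78 in the matched range). Gm26917 had 2.56. Cycs rose from 746, 644 and 608 CPM to 1116, 1022 and 932 CPM (log2 0.52, adjusted p = 2.77e-05, edgeR). All 15 testis respiratory and sheath genes were lower, with a median of −0.84 (10 of 15 in the matched range), and 9 of 11 early spermatocyte markers were lower, with a median of −1.06 (0 of 7 in the matched range). Of the 25 general respiratory genes 3 were lower and 7 higher, near the 23.9% of all genes that were higher. Their median was 0.01 against 0.02 over all genes, so this list showed no shift of its own. Of 14 immediate-early and heat shock genes 8 were higher, with Egr1 at 95.8, 105 and 119 CPM against 29.7, 49.6 and 72.0 CPM. In the matched range 1 of 8 was higher and 2 were lower. Markers of other cells were scarce in Sertoli-like members: Leydig markers summed to 21.7, 32.8 and 34.8 CPM and endothelial markers to 4.78 to 6.46 CPM.

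In the intermediate germ class members differed from other barcodes by 3127 higher (23.1%) and 3099 lower (22.9%) of 13545 genes. Under library totals 73.0% instead of 50.2% of the called genes were higher. Cytosolic ribosomal protein genes fell as a group: 74 of 83 were lower and 0 higher, with a median of −0.74, and 78 of 81 were lower in the matched range. Under library totals 65 were lower and 2 higher. Of 25 general respiratory chain genes 18 were lower and 1 higher, 17 of 24 were lower in the matched range and 11 under library totals. Atp5b, the catalytic subunit of the ATP synthase, stood at 265, 294 and 275 CPM against 374, 383 and 392 CPM (log2 −0.83).

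The higher genes of this class were led by Gnaz and Kcnq1ot1. Kcnq1ot1, a long antisense RNA that stays at its imprinted locus, stood at 248, 214 and 176 CPM in members against 20.9, 15.5 and 20.03 CPM (log2 3.12, adjusted p = 3.53e-19, edgeR; 2.48 in the matched range). Its level is uncertain as that of any antisense gene, since the use of strand in counting is not given in the sources used here. Gnaz, a G protein subunit, had 3.35, Ttn, the giant muscle protein titin, 2.88, Cabin1 2.79 and Knl1, a kinetochore scaffold, 2.70, and A26c2, Speer4d, Gpatch8, Speer4c and Ttf1 had 2.64 to 2.89. All 10 passed in the matched range, with 1.80 to 2.82. The lower genes were Dcaf7 (−1.77), Ppp1cc, a phosphatase needed for sperm formation (−1.76), Slc25a39 (−1.70), Efhd1, Pxt1, Phf6, Arl2, Dctn6 and Rmnd5b (−1.67 to −1.60). In the matched range these differences were smaller, −0.64 for Dcaf7, −0.72 for Ppp1cc and −0.85 for Slc25a39, and Arl2 did not pass (−0.60, adjusted p = 0.0541, edgeR). Hbb-bs, a globin gene, had 1, 0 and 0 UMIs in the members of this class and 1997, 2827 and 3199 UMIs in the others. Of 5 erythroid markers 4 were lower and 0 higher here, with a median of −10.3. No cluster was named erythroid, so a red blood cell among the others would carry another class name. Whether this class held such cells was not tested.

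Values of 5 chaperone genes of the endoplasmic reticulum follow for the intermediate germ class; they were singled out after their values had been seen and form no tested list. Hsp90b1 stood at 3130, 2681 and 2487 CPM in members against 352, 347 and 354 CPM in the others, with no overlap (log2 2.61 ± 0.11 SE, adjusted p = 2.48e-20, edgeR; 2.23 in the matched range). Hspa5, the chaperone BiP, stood at 1641, 1451 and 1516 CPM against 288, 290 and 304 CPM (log2 2.02), and Pdia6 at 1069, 885 and 767 CPM against 187, 171 and 175 CPM (1.97). Calr had 0.86 and Pdia4, which did not pass, 0.66 (adjusted p = 0.153, edgeR). In Sertoli-like members Hsp90b1 had 0.45, and 0.05 in the matched range. In this class the proapoptotic gene Bbc3 was higher as well, at 10.95, 18.9 and 21.8 CPM against 1.71, 1.61 and 2.17 CPM (log2 2.88, adjusted p = 4.00e-07, edgeR). These levels rest on few UMIs in members. Of 8 tested genes of the apoptosis list, 4 were higher and 0 lower in this class, beside 23.1% and 22.9% of all genes. In the matched range 1 of 3 was higher and 1 lower, with a median of −0.03 against −0.04 over all tested genes.

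Spermatid and Sertoli transcripts were also higher in intermediate members over all depths, but not in the matched range. Of 13 elongating spermatid markers 10 were higher, and in the matched range 0 were higher and 8 lower. Prm1 stood at 14422, 13676 and 13873 CPM against 3461, 3148 and 6161 CPM (log2 1.42; −0.15 in the matched range). Sertoli markers were higher for 7 of 9, and for 0 of 7 in the matched range. Acrv1, an acrosomal protein of round spermatids, went the other way, with −0.01 over all depths and 1.05 in the matched range.

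In the round spermatid-like class the calls were 787 higher (6.03%) and 1680 lower (12.9%) of 13050 genes. Leaving out wildtype replicate 1 gave 1484 and leaving out wildtype replicate 2 gave 1487 calls in place of 2467. Under library totals 55.5% instead of 31.9% of the calls were higher. All 11 round spermatid markers were lower, with a median of −1.12, and 7 of 11 in the matched range. Acrv1 stood at 392, 350 and 223 CPM in members against 743, 692 and 650 CPM (log2 −1.30, adjusted p = 4.63e-22, edgeR). Sertoli markers were higher for 8 of 8, and for 6 of 7 in the matched range, with Aard at 301, 350 and 398 CPM against 48.6, 28.9 and 35.8 CPM. The round spermatid-like members therefore carried less of the RNA that defines their class and more of the Sertoli RNA. The other named higher genes were Gatm (3.11), Rhox5 (3.0), Lars2 (2.91), Rhox8 (2.84), Tsx, Cited1, Cst9, Etd and Defb19 (2.71 to 2.81), of which Gatm, Aard, Cst9 and Defb19 are among the leading genes of the Sertoli-like cluster. In the matched range Gatm had 1.90, Lars2 1.09 and Aard 1.25, while Tsx (0.82, adjusted p = 0.276), Cited1 (1.11, adjusted p = 0.161) and Etd (0.84, adjusted p = 0.244, edgeR) did not pass. Adam6a, Kdm6bos, Pla2g10, Zfp428, Vgll3, Vav3, Tmem123, Rnf2, Tas1r1 and Parn fell by 1.63 to 1.97 on the log2 scale, on 0 to 17 UMIs per library in members. In the matched range Tmem123 (−0.77, adjusted p = 0.417), Rnf2 (adjusted p = 0.206), Tas1r1 (adjusted p = 0.0705) and Vgll3 (adjusted p = 0.0539, edgeR) did not pass.

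Genes detected per barcode were compared after thinning to 1000 non-mitochondrial UMIs, which left out 326, 312 and 9 members. Members then showed a median of 769, 775 and 749 genes, against 730, 736 and 726 in the other barcodes. Without thinning the medians were 964, 966 and 1442 against 1272, 1452 and 1528, so the order turned. Within the Sertoli-like class the thinned medians were 744, 758 and 739 against 742, 751 and 737, a difference of at most 7 genes. In the intermediate germ class they were 786, 787 and 770 against 734, 745 and 729. Round spermatid-like members had 745, 749 and 704 against 742, 755 and 736, lower than the others in wildtype replicate 2 and in the knockout library.

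The knockout library was set against both wildtype libraries within the members by a size rule, with no test. Levels were compared as log2 of CPM + 1. To pass, a gene had to differ from each wildtype library by 1 or more in the same direction, and by 2 times the gap between the wildtype libraries or more, with 20 CPM somewhere. Of 8545 genes in all members, 66 did so, with 30 higher (0.351%) and 36 lower (0.421%). Of these, 24 also passed in the same direction in the other barcodes, where 49 passed in all. With 1 wildtype library left out the rule was looser: 104 genes passed without wildtype replicate 1 and 192 without wildtype replicate 2. Tex10 did not pass. Intervals below are exact Poisson intervals.

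Fam181b fell most, from 61.1 (51.4 to 72.0) and 54.4 CPM (45.7 to 64.3) to 1.46 CPM (0.473 to 3.401), on 142, 138 and 5 UMIs. It stood at 1.70, 1.62 and 0.226 CPM in the other barcodes and at 112, 92.9 and 2.49 CPM in Sertoli-like members. Hddc3 was at 28.4, 30.8 and 5.25 CPM and Col16a1, a collagen, at 100.6, 76.1 and 14.0 CPM. In the other barcodes Hddc3 stood at 14.5, 13.4 and 5.40 CPM and Col16a1 at 193, 180 and 12.5 CPM. Rpl29, a ribosomal protein gene (491, 524 and 58.0 CPM), and Gm8797 (161, 202 and 15.4 CPM) have near-identical copies, so their levels are uncertain. The other barcodes held 852, 861 and 89.5 CPM of Rpl29 and 156, 195 and 21.0 CPM of Gm8797. Higher in the knockout members were E330017L17Rik (1.29, 1.18 and 32.1 CPM), Eif3j2 (2.15, 2.76 and 23.6 CPM; uncertain beside its copy Eif3j1) and P3h3, a collagen prolyl hydroxylase (6.45, 2.76 and 43.7 CPM). Gm4665 and Gm26885 passed as well, but they are antisense genes and uncertain without strand. Of the genes that passed, 14 of 542 tested lay on chromosome 4, which holds Tex10, 12 of 326 on chromosome 14 and 9 of 489 on chromosome 9.

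Sertoli-like members had 56 such genes among 8098, with 27 higher (0.333%) and 29 lower (0.358%). Of these, 19 also passed in the other Sertoli-like barcodes, where 89 passed in all. Without wildtype replicate 1, 120 passed, and without wildtype replicate 2, 155. Trim12a had 0, 0 and 51 UMIs, which is 25.4 CPM (18.9 to 33.3) in the knockout and allows up to 3.07 and 2.52 CPM in wildtype replicates 1 and 2. Zfp949 went from 14.2 and 11.6 CPM to 76.6 CPM (65.0 to 89.7), and Gm43305 from 29.1 and 39.6 CPM to 3.98 CPM (1.72 to 7.84). Tex10 was at 35.0, 39.0 and 55.7 CPM. The intermediate germ class had 195 of 7627, with 55 higher (0.721%) and 140 lower (1.84%). The round spermatid-like class had 941 of 7346, with 207 higher (2.82%) and 734 lower (9.99%). Without wildtype replicate 1 the counts were 567 and 1981, and without wildtype replicate 2 they were 588 and 1856. The named genes of both germ classes rest on few UMIs. 9530002B09Rik had 0, 0 and 19 UMIs and Zfp990 13, 10 and 0 in the intermediate class, and Bik had 0, 0 and 4 and Pole2 27, 14 and 0 in the round spermatid-like class. In the other barcodes of the same classes 9530002B09Rik stood at 0.0853, 0.0765 and 38.2 CPM and Zfp990 at 10.8, 9.33 and 0.264 CPM. Bik stood at 1.98, 1.52 and 1.31 CPM there and Pole2 at 39.7, 49.5 and 29.1 CPM. The knockout library held 79 round spermatid-like members in all.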

How the data were processed

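Each library was deposited as a filtered matrix of raw UMI counts per gene and barcode, which are whole numbers per the file headers. Cell Ranger 4.0.0, Seurat 4.0.5 and mm10 are named in the submitters' processing notes; the use of strand in counting is not given in the sources used here. The matrices hold 32285 genes, and no column of sample values was left unused. Coordinates are those of GRCm38.

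The mitochondrial share was computed over the 13 mt- genes. Profiles came from barcodes of 5000 UMIs and 500 genes or more in which mt- genes held at most 10%, without the 8% with the highest doublet scores of each library; the doublet caller's own threshold marked 1, 2 and 0 barcodes and was not used. They were clustered with scanpy 1.11.5 (2000 variable genes, 30 components, 15 neighbours, Leiden resolution 1). A cluster was named from at least 3 detected markers and gave a profile from 20 barcodes upward. These names were rebuilt here, so a class may differ from the one the study used for that reason. Members and other barcodes were compared with edgeR 4.0.16 on summed counts, filtered for low counts, with the library as a block. The pairing comes from the design, since members and others of a library come from the same suspension. The test was checked on simulated data, and DESeq2 1.42.0 was an alternative. The p-values rest on the spread between these 3 libraries, 1 of which is a knockout, and that spread was estimated partly from all genes together. They therefore do not measure the spread of each gene on its own.

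Named genes were the 10 higher and 10 lower genes with the largest log2 change among those with adjusted p of at most 0.05, 1 sign in every library and at least 50 CPM in members or others of each library, without Gm and Rik symbols; for the knockout, 5 in each direction and Tex10; and from each gene list, genes of high level and those called. Members and lists were chosen with earlier results of these data known. The naming rules, the minimum of 20 barcodes, the mixed profile, the library totals and the Sertoli-like share by limit were chosen after seeing the data.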

Additional observations from a re-analysis of the deposited data

How the results depend on the processing

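The difference in the share of barcodes over the limit, knockout minus wildtype mean, was −5.53 points at a limit of 5% and −1.55 at 20%. It turned to 0.903 points at 2000 UMIs or more and 1.46 at 5000 or more, and lay between −3.66 and −3.46 with either wildtype library left out. The share of mt-Co1, mt-Co2 and mt-Co3 in mitochondrial UMIs moved by less than the spread between libraries under every alternative run. The mean Sertoli-like share of members was 29.9% with rank correlation, 26.9% with the shallow profile added, 41.6% at a limit of 20% and 54.8% from 2000 non-mitochondrial UMIs upward. The intermediate germ class had 21.8%, 4.57%, 14.3% and 15.4% in that order, and 20.5% when each stage profile was mixed with the shallow one. The round spermatid-like share was 1.15% with the shallow profile, 36.2% at 20%, 4.10% from 2000 upward and 5.08% when mixed, and the late spermatocyte-like share was 14.1% from 2000 upward and 12.2% when mixed. With 1 library left out the means were 35.9 to 38.1%, 30.9 to 34.0%, 12.4 to 21.8% and 7.31 to 10.0% for these 4 classes. The causes were not tested.

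Genes called between members and others numbered 12146 by edgeR, 10913 by DESeq2, 5119 for members over 20% and 6479 in the matched range, of which 5644 were also called over all barcodes, 147 of them in the opposite direction. Piwil1 turned from −2.19 to 0.22 (adjusted p = 0.206, edgeR) there. In the Sertoli-like class the 5780 calls became 3055 with DESeq2, 204 over 20% and 1922 in the matched range; in the intermediate class 6226 became 685 over 20%; in the round spermatid-like class 2467 became 1374 with DESeq2 and 430 in the matched range. With 1 library left out the counts were 10525 to 11499, 4269 to 5412, 4713 to 5848 and 1484 to 1940 in that order. Without the replicate block, by library, they were 12179, 4509, 5646 and 2475, and no named gene lost its call. Of 80 named results, 63 kept their call in the matched range and 14 lost it, and 26 lost it for members over 20%.

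No paired analysis was possible for the knockout because it has 1 library. Its size rule passed 245, 254, 551 and 1459 genes with a 1.5-fold limit and 394, 535, 2427 and 2630 with no CPM minimum, over all members and the Sertoli-like, intermediate and round spermatid-like classes. At a limit of 20% the first 3 counts were 422, 545 and 1294. With a wildtype library left out they were 104 to 192, 120 to 155, 567 to 588 and 1856 to 1981. Members held few UMIs, so genes with a handful of UMIs in a germ class have wide intervals.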
